A study of Mus musculus with 16 samples.

Results

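The cytosolic ribosomal protein genes, coding the proteins that build the 2 subunits of the ribosome in the cytoplasm, were followed across the mammary fat pad of lean, obese and formerly obese mice. They were chosen by name alone, as the listed genes whose symbol is Rpl or Rps followed by a number (with an optional a or x) or Rplp followed by 0, 1 or 2, which gave 75 of 23179 listed genes: 29 of the small subunit and 46 of the large subunit, 3 of them the stalk proteins. RNA-seq had been run on 16 libraries, 4 in each of 4 groups, of female C57BL/6NCrl mice bought at 8 weeks of age. CON-LFD mice ate a low-fat diet (10% of energy from fat) throughout and had sham surgery. DIO-HFD mice ate a high-fat diet (60% of energy from fat) throughout and had sham surgery. DIO-LFD mice were made obese on the high-fat diet for 15 weeks, had sham surgery and were then moved to the low-fat diet. DIO-VSG mice were made obese in the same way, had vertical sleeve gastrectomy (VSG), which removes most of the stomach, and were then fed the low-fat diet. All mice, controls included, carried an orthotopic E0771 tumor, a mouse mammary cancer line placed in the fourth fat pad 22 weeks after the diets began, and the tissue was taken 4 weeks later. The labels name the E0771 line as the cell of origin, whereas the study's methods describe the fat pad contralateral to the tumor. In the libraries, all 15 adipocyte markers and all 15 mammary epithelial markers on the lists had reads in every library. So did all T cell, B cell, skeletal muscle, erythroid and plasma cell markers. The presence of reads therefore cannot decide between the 2 descriptions.

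Each ribosome holds 1 copy of nearly every one of these proteins, and their genes are therefore transcribed and translated in step. The mRNAs are among the most abundant of any cell, and most begin with a 5′ terminal oligopyrimidine tract (a 5′TOP), a run of C and T bases at the first transcribed base through which the kinase mTOR raises or lowers their translation when nutrients and growth factors change. Several of the genes are used as references in quantitative PCR. The measurements here are of mRNA only and carry no information on translation.

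The annotated start sites were searched for such a tract. RefSeq promoters (GRCm38.p6) were at hand for 55 of the 75 genes, in 65 rows because 8 genes had more than 1 start. A run of at least 8 pyrimidines covering the first transcribed base was present in 17 of the 65 rows (26.2%), against 3.86% of all 32851 promoters of the same length. In the other 48 rows the run over the start held 0 to 7 bases, and 35 of them had none, the rows of *Rplp0*, *Rpl5* and *Rps3* among them. A start annotated a few bases off would hide a tract, so these rows do not show that a gene lacks one. The 30 bases around the start, 15 before and 15 from the first transcribed base on, are shown for 6 genes described further on, with the pyrimidine run over the start in capitals, and then for 4 genes whose RefSeq start lies outside such a run, *Rpl27* and *Rpl10*, whose differences between groups were among the largest, and *Rplp0* and *Rps3*.
Rps6, chr4:86857353-86857382, minus strand: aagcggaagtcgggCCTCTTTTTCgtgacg
Rplp2, chr7:141447636-141447665, plus strand: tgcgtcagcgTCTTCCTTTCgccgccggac
Rpl38, chr11:114668565-114668594, plus strand: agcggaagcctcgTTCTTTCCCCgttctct
Rps27, chr3:90213634-90213663, minus strand: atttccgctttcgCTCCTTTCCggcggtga
Rps24, chr14:24490663-24490692, plus strand: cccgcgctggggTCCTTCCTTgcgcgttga
Rpl35a, chr16:33056467-33056496, plus strand: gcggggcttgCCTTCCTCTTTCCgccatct
Rpl27, chr11:101442230-101442259, plus strand: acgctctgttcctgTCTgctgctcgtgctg
Rpl10, chrX:74270801-74270830, plus strand: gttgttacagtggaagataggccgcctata
Rplp0, chr5:115559452-115559481, plus strand: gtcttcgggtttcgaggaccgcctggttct
Rps3, chr7:99483695-99483724, minus strand: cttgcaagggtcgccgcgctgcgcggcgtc
*Rpl35a* had 3 starts and *Rps24* had 2, of which the start with the longest run is shown. For *Rpl27* the run over the start held only 3 bases, and those of *Rpl10*, *Rplp0* and *Rps3* held none. In the full 300-base promoters (250 bases before and 50 from the start on, both strands, no string containing another), CCGGAAGT was present in 15.4% of the member rows against 3.89% of all promoters. GGGCGG was present in 60% against 35.7%. TATAAA was present in 9.23% of the member rows and 13.6% of all promoters. These matches describe letters in the windows and show no binding.

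The 75 genes varied together from mouse to mouse, and the DIO-VSG libraries were high throughout. The libraries held 46907377 to 57610899 reads over the listed genes, and each member had at least 594 reads in every library. The members took 1.42, 1.25, 1.94 and 1.22% of the reads in the 4 CON-LFD libraries, 2.51, 1.51, 1.27 and 1.95% in DIO-HFD, 1.54, 1.64, 1.85 and 1.49% in DIO-LFD and 2.38, 2.13, 1.95 and 1.85% in DIO-VSG. The group means were 1.46 ± 0.333%, 1.81 ± 0.546%, 1.63 ± 0.158% and 2.08 ± 0.235% (SD, n = 4), in the same order. The highest share of all was a DIO-HFD library, replicate 1, and DIO-HFD had the widest spread, while the DIO-LFD libraries lay closest together. The 95% Wilson interval of a library's share was at most 0.00873 percentage points wide and covers counting error only.

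**Figure D1:**
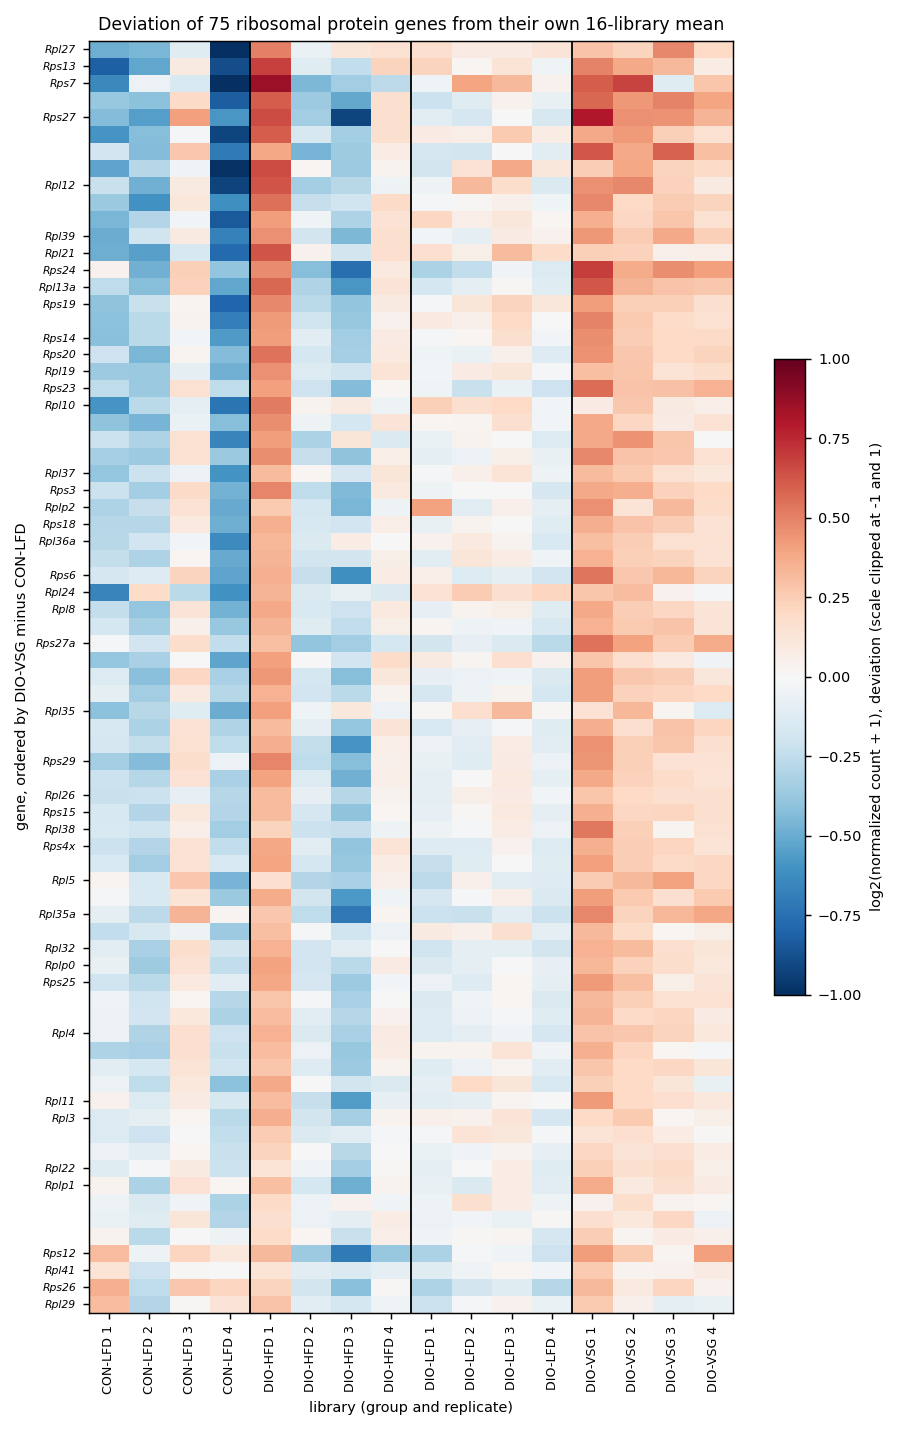
Each row is 1 of the 75 genes, with symbols beside those named in the text, and each column 1 of the 16 libraries, with the colour giving the log2 deviation of the normalized count + 1 from that gene's mean over all libraries. All 75 genes lie above their own mean in DIO-HFD replicate 1 and in DIO-VSG replicates 1 and 2, and only 1 does so in CON-LFD replicate 2.

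The level was also read gene by gene, which gave each gene equal weight. The median over the 75 genes of the deviation from each gene's own 16-library mean, on the log2 scale, was -0.21, -0.28, 0.099 and -0.37 in CON-LFD, 0.37, -0.17, -0.33 and 0.054 in DIO-HFD, -0.065, -0.012, 0.053 and -0.098 in DIO-LFD and 0.37, 0.24, 0.21 and 0.14 in DIO-VSG. All 4 DIO-VSG libraries were above every CON-LFD and every DIO-LFD library on this measure, whereas by share of reads CON-LFD replicate 3 (1.94%) lay above DIO-VSG replicate 4 (1.85%). The DIO-HFD libraries spanned nearly the whole range. All 75 genes lay above their own mean in 3 libraries, DIO-HFD replicate 1 and DIO-VSG replicates 1 and 2, and 66 of the 75 did so in all 4 DIO-VSG libraries. In CON-LFD replicate 2 only 1 gene lay above its mean. Removing each library's median brought the typical spread of a gene over the 16 libraries from an SD of 0.26 to 0.13 on the log2 scale.

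The level of the members moved with markers of lymphocytes. The mean log2 deviation of 35 T and B cell markers was -0.093, -4.10, 1.63 and -2.88 in CON-LFD, 2.10, -2.12, -3.52 and 1.21 in DIO-HFD, -0.24, 0.33, 0.58 and 0.71 in DIO-LFD and 1.89, 1.47, 1.56 and 1.47 in DIO-VSG. The 3 libraries with the lowest members, CON-LFD replicates 2 and 4 and DIO-HFD replicate 3, were the 3 lowest in these markers, and the 2 with the highest members, DIO-HFD replicate 1 and DIO-VSG replicate 1, were the 2 highest. The order was not the same throughout. DIO-LFD replicate 4 was the highest of its group in these markers (0.71) and the lowest in the members (-0.098). The summed level of the 19 T cell markers ranged from 2305 to 58809 normalized counts in CON-LFD, from 2355 to 87704 in DIO-HFD, from 15976 to 33761 in DIO-LFD and from 51080.4 to 81974 in DIO-VSG. The 16 B cell markers summed to 8489 to 114759, 15839.7 to 145661, 39782 to 64792 and 102543 to 118165 in the same order. No marker of either list was at 0 in any library. None of them passed the test (limma), and in DIO-VSG against CON-LFD 17 of the 19 T cell and 14 of the 16 B cell markers were higher at an unadjusted p under 0.05, against 10.2% of all genes, with medians of 2.78 and 3.79 on the log2 scale. The 15 macrophage markers summed to 21331 to 161708 in CON-LFD and 39893 to 87750.2 in DIO-VSG, and the 15 adipocyte markers to 1173140.0 to 2033920.0 and 1011490.0 to 1434840.0. The sums of CON-LFD and DIO-VSG overlapped for all 4 of these marker lists. In bulk tissue, fewer cells of a type and less RNA per cell cannot be told apart. Each comparison below is therefore also given with the lymphocyte marker level as a covariate.

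**Figure D2:**
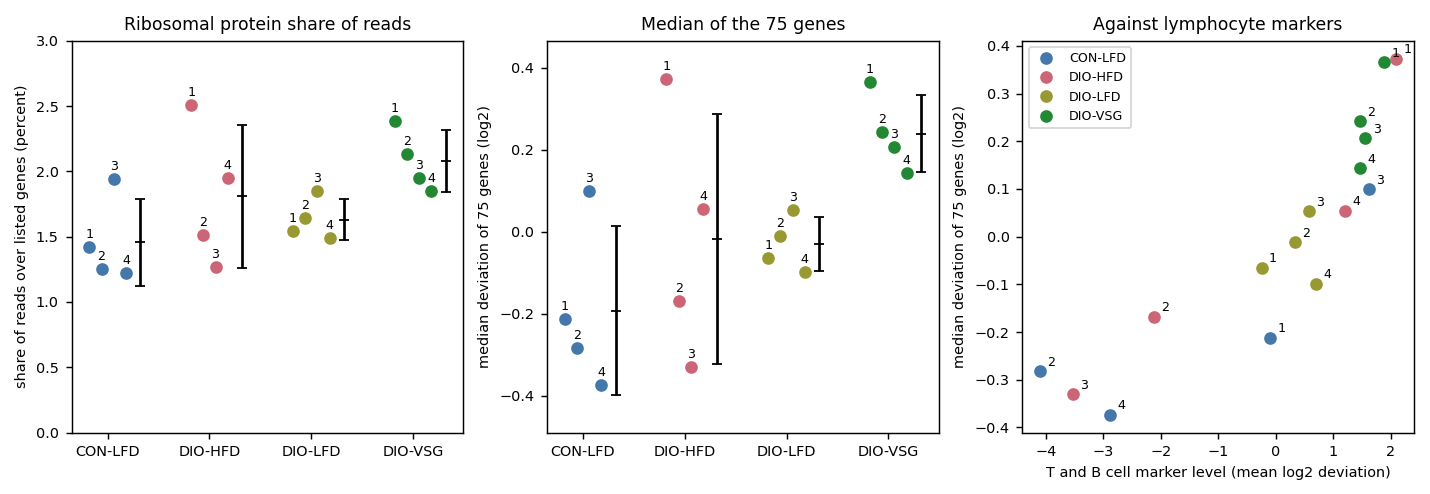
Left and middle, the members' share of reads and their median deviation, with a point for each library, its replicate number, and the mean ± SD of each group (n = 4). Right, the median deviation against the mean log2 deviation of 35 T and B cell markers, in which the 4 DIO-VSG libraries sit together at marker levels of 1.47 to 1.89 while CON-LFD and DIO-HFD spread from the lowest levels to the highest.

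The comparison of DIO-VSG with CON-LFD, which asks whether formerly obese tissue returned to the lean level, held the largest difference. The members were higher in DIO-VSG by a median of 0.43 on the log2 scale, with 74 of the 75 above 0, against a median of -0.02 over all 21218 genes tested, of which 47.8% were above 0. None of the 75 passed the test (limma, adjusted p under 0.05), as none of all genes did (0% called), and voom called none. At an unadjusted p under 0.05, 64 of the 75 were higher and none lower, against 10.2% of all genes higher and 7.55% lower (17.8% in all), and voom gave 64. The 4 DIO-VSG libraries lay above all 4 CON-LFD libraries for 41 members, against 2.59% of all genes, and below them for none (4.43%). The small subunit had 27 of 29 genes and the large subunit 37 of 46, stalk included, at an unadjusted p under 0.05.

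The 3 members with the smallest p in that comparison belong to the large subunit. Levels are normalized counts, the reads of a gene divided by the size factor of its library. Differences are given as log2 change ± SE, and in this comparison the adjusted p (limma) was 0.268 or above for every member. *Rpl27* was 1043, 1069, 1345 and 597 in CON-LFD, 2074, 1401, 1597 and 1631 in DIO-HFD, 1643, 1550.3, 1547 and 1605 in DIO-LFD and 1788, 1707, 2043 and 1680.1 in DIO-VSG. The DIO-VSG libraries did not overlap with CON-LFD, and neither did the other obese and formerly obese groups. The difference was the largest of the family (0.89 ± 0.19), and it was 0.42 once reads of near-identical copies of the gene, described further on, were added. *Rpl37* was 3113, 3518, 3912 and 2700.0 in CON-LFD, 5079, 4134, 3630.1 and 4443 in DIO-HFD, 4038, 4234, 4485 and 3926 in DIO-LFD and 5089, 4892, 4525 and 4396 in DIO-VSG. For *Rpl37*, a zinc-binding protein, all DIO-VSG libraries were again above all CON-LFD libraries (0.52 ± 0.12). *Rpl19* was 13678, 13582, 16557 and 12599.7 in CON-LFD, 24166, 16013, 15329 and 19391 in DIO-HFD, 17312, 18604, 19161 and 17333 in DIO-LFD and 21641, 21370.5, 19385 and 19882 in DIO-VSG. *Rpl19*, which forms a bridge to the small subunit, showed the same separation (0.55 ± 0.13). At the other end, *Rpl29* was the only member without a positive difference (-0.0036 ± 0.13), with 3236, 2129.8, 2640.2 and 2862 in CON-LFD and 3132, 2713, 2445 and 2482 in DIO-VSG, and its sign changed when reads were scaled to library totals. Scaled to all reads, the median over the members was 0.54 and that over all genes tested 0.088.

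The number of calls in this comparison changed with CON-LFD replicate 3, the control library with the highest lymphocyte marker level. Without it, 29 members passed the test and the median difference was 0.52, while 4.11% of all genes then passed, the lowest adjusted p being those of *Rps13* and *Rpl27*. With weights that let libraries differ in precision, 64 members passed, beside 19.9% of all genes. With the lymphocyte marker level as a covariate, the median difference fell to 0.17, 25 members had an unadjusted p under 0.05, against 5.04% of all genes, and none passed the test. *Rpl27* was then 0.64 higher (adjusted p = 0.949) and *Rplp0* 0.058 (adjusted p = 0.970).

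**Figure D3:**
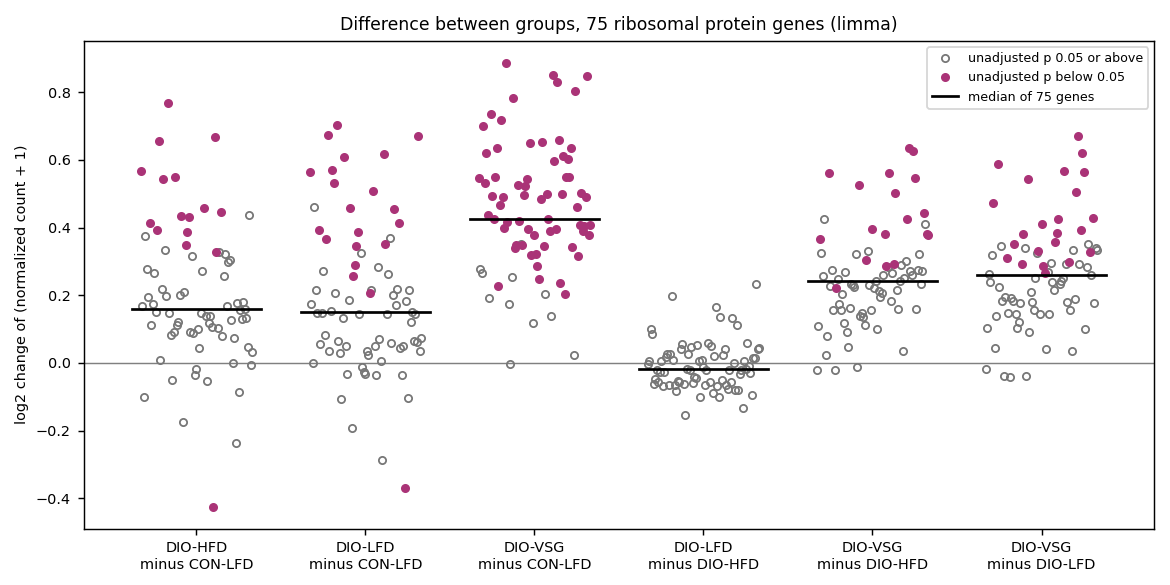
Each point is 1 of the 75 genes, its height the log2 change of the normalized count + 1 between the 2 groups named on the axis, filled where the unadjusted limma p is under 0.05, and the bar is the median of the 75. The 3 comparisons with DIO-VSG have medians of 0.24 to 0.43, and DIO-LFD minus DIO-HFD lies around 0.

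DIO-VSG was also set against DIO-LFD, the 2 routes to a formerly obese state on the same final diet. The members were higher after VSG by a median of 0.26, with 71 of 75 above 0 against 47.3% of all genes. None passed the test (limma, 0% of all genes called), and voom called none. At an unadjusted p under 0.05, 23 members were higher and none lower (4.3% of all genes higher, 5.41% lower, 9.71% in all), and voom gave 21. The count was 7 without DIO-VSG replicate 1, against 5.11% of all genes, and 37 without DIO-HFD replicate 1, against 13.3%. It was 13 scaled to all reads (8.08% of all genes) and 39 with copies added (9.59%). The groups did not overlap for 48 members, all higher after VSG, against 12.9% of all genes higher and 5.83% lower. With these 2 tight groups fitted alone, 22 members passed, beside 7.22% of all genes. The smallest p fell to *Rps27a*, whose product is made as a fusion with ubiquitin. *Rps27a* was 6651, 5886, 7597 and 5659 in CON-LFD, 8278, 5112, 5278 and 5939 in DIO-HFD, 5916, 6334, 6077 and 5559 in DIO-LFD and 9793, 8875, 8021 and 8674 in DIO-VSG. Every DIO-VSG library exceeded every other library except DIO-HFD replicate 1, which lay within the DIO-VSG range (0.56 ± 0.14, adjusted p = 0.509 against DIO-LFD). *Rps23* was 3380.3, 3123, 4491 and 3377 in CON-LFD, 5358, 3490.3, 2977 and 4076 in DIO-HFD, 3914, 3448, 3852 and 3496 in DIO-LFD and 5937, 4900.1, 4932 and 5133 in DIO-VSG. *Rps23*, a protein of the decoding centre, separated the 2 groups as well (0.50 ± 0.16, adjusted p = 0.509). *Rpl35a* was 5644, 4996, 7599 and 6119 in CON-LFD, 7225, 5034, 3649.7 and 6102 in DIO-HFD, 5173, 5136, 5590.0 and 5163 in DIO-LFD and 8364, 6986, 7558 and 7858 in DIO-VSG. *Rpl35a* did so too (0.54 ± 0.17, adjusted p = 0.509), although CON-LFD replicate 3 was as high as the DIO-VSG libraries. The largest difference was that of *Rps24*. *Rps24* was 30221, 20988, 34584 and 22245 in CON-LFD, 40770.2, 21878, 17417 and 31289 in DIO-HFD, 23485, 24744, 28559 and 26656 in DIO-LFD and 47289, 37857, 40542 and 38998 in DIO-VSG. All DIO-VSG libraries were above all DIO-LFD libraries (0.67 ± 0.23, adjusted p = 0.509). *Rpl24*, an intersubunit bridge protein, had the lowest difference (-0.040 ± 0.17, adjusted p = 0.918) and changed sign when scaled to library totals. With the lymphocyte markers as a covariate the median was 0.15 and 23 members had an unadjusted p under 0.05, against 7.93% of all genes.

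DIO-VSG and DIO-HFD differed in surgery and in final diet, which cannot be told apart here. Relative to DIO-HFD, the members in DIO-VSG were higher by a median of 0.24, with 72 of 75 above 0 against 52.5% of all genes. None passed the test (limma, 0% of all genes called), and voom called none. At an unadjusted p under 0.05, 18 were higher and none lower (5.05% of all genes higher, 8.12% lower, 13.2% in all), and voom gave 17. The groups did not overlap for only 1 member, higher after VSG, against 2.37% of all genes higher and 4.22% lower, and DIO-HFD replicate 1 reached the DIO-VSG level. *Rps27a* again had the smallest p (0.55 ± 0.14, adjusted p = 0.243). *Rps12* was 6327, 4921, 5922 and 5500.5 in CON-LFD, 6387, 3974, 3132 and 3934 in DIO-HFD, 4104, 5068, 4961 and 4426 in DIO-LFD and 6834, 6128, 5214 and 6801 in DIO-VSG. For *Rps12*, the CON-LFD libraries lay above 3 of the 4 DIO-HFD libraries, and DIO-HFD replicate 1 lay among the DIO-VSG libraries (0.56 ± 0.17, adjusted p = 0.274). *Rpl35a* came next (0.52 ± 0.17, adjusted p = 0.278), and *Rps24* had the largest difference (0.64 ± 0.23, adjusted p = 0.305). *Rpl10* had the lowest (-0.021 ± 0.14, adjusted p = 0.949). With copies added, the differences were 0.30 for *Rps27a*, 0.30 for *Rps12*, 0.46 for *Rpl35a*, 0.66 for *Rps24* and 0.055 for *Rpl10*. Without DIO-HFD replicate 1 the median difference was 0.37 and 57 members had an unadjusted p under 0.05, against 27.5% of all genes. Without DIO-HFD replicate 3 the median was 0.14 and 4 members did, against 8.67% of all genes, and without DIO-VSG replicate 1 these values were 0.20, 6 and 9.39%. Scaled to all reads, 4 members had an unadjusted p under 0.05, against 14.3% of all genes. The covariate brought the median to 0.058, with 5 members at an unadjusted p under 0.05, against 10.5% of all genes. With library weights 20 members passed, beside 17.6% of all genes.

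Obesity itself was compared as DIO-HFD against CON-LFD. The members were higher in DIO-HFD by a median of 0.16, with 64 of 75 above 0 against 52.7% of all genes. Scaled to all reads, the median was 0.30 and that over all genes 0.16, and with the lymphocyte marker level as a covariate the members' median was 0.079, with 21 at an unadjusted p under 0.05 against 16.8% of all genes. Without DIO-HFD replicate 1 the median was 0.032. None passed the test (limma), while 8 of all genes did (0.0377%), and voom called none. At an unadjusted p under 0.05, 15 members were higher and 1 was lower (5.23% of all genes higher, 7.66% lower, 12.9% in all), and voom gave 16. The groups did not overlap for 3 members, *Rpl27*, *Rpl10* and *Rpl35*, all higher, against 1.76% of all genes higher and 3% lower. *Rpl21* was 2557, 2463, 3207 and 2086 in CON-LFD, 5543, 3688, 3162 and 4023 in DIO-HFD, 4034, 3733, 4451 and 4068 in DIO-LFD and 4219.5, 4193, 3701 and 3749 in DIO-VSG. *Rpl21* was higher in DIO-HFD, with DIO-HFD replicate 3 just under CON-LFD replicate 3 (0.66 ± 0.15, adjusted p = 0.167). With the reads of its copies added the difference was 0.22, and its own row held 45.9 to 71.5% of those reads, depending on the library. The copy *Rpl21-ps8* was 1857, 1223, 2425 and 1896 in CON-LFD, 894, 1000.4, 553 and 1443 in DIO-HFD, 818, 724, 857 and 757 in DIO-LFD and 2495, 1680.1, 2393 and 2167 in DIO-VSG, so that most DIO-HFD libraries and all DIO-LFD libraries lay below all CON-LFD libraries. *Rpl27* had the largest difference (0.77 ± 0.19, adjusted p = 0.185), which was 0.21 with its copies added. *Rpl10* was 1565, 1958, 2217 and 1416 in CON-LFD, 3372, 2417, 2502 and 2274 in DIO-HFD, 2785, 2638, 2699.7 and 2317 in DIO-LFD and 2498, 2836, 2504 and 2466 in DIO-VSG. *Rpl10*, a protein that joins late and sits near the peptidyl transferase centre, was lower in every CON-LFD library than in any other library (0.57 ± 0.14, adjusted p = 0.190), and its difference was 0.29 with copies added. *Rps12* was the member with an unadjusted p under 0.05 in the other direction (-0.42 ± 0.17, adjusted p = 0.329). With the copies of *Rps12* added the difference was -0.060, and its own row held 27.7 to 42.6% of those reads, depending on the library. *Rpl21* passed with the covariate (adjusted p = 0.0491), and *Rpl27*, *Rpl21* and *Rpl10* passed without CON-LFD replicate 3. With library weights 34 members passed, beside 19.8% of all genes.

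DIO-LFD was compared with CON-LFD too, a comparison that shares the CON-LFD libraries with the previous one. The median difference was 0.15, with 64 of 75 above 0 against 53.1% of all genes. None of the members passed the test (limma), 1 of all genes did (0.00471%), and voom called none. At an unadjusted p under 0.05, 20 were higher and 1 lower (3.23% of all genes higher, 3.03% lower, 6.26% in all), and voom gave 21. That count was 7 with the copies of the members added (median 0.076, 5.97% of all genes), 3 without CON-LFD replicates 1 and 4 (median 0.057, 2.78% of all genes) and 12 without CON-LFD replicate 4 alone (median 0.088, 5.34% of all genes). The groups did not overlap for 11 members, all higher in DIO-LFD, against 1.73% of all genes higher and 1.81% lower. *Rpl21* (0.67 ± 0.15, adjusted p = 0.386), *Rpl10* (0.56 ± 0.14, adjusted p = 0.472) and *Rpl27* (0.70 ± 0.19, adjusted p = 0.485) had the smallest p, and in all 3 the 4 DIO-LFD libraries were above the 4 CON-LFD libraries. With copies added, these differences were 0.19, 0.25 and 0.19. *Rps26* was 14063, 9183, 13201 and 12745 in CON-LFD, 12834, 9649, 8219 and 11044 in DIO-HFD, 8874, 9679, 10071 and 8985 in DIO-LFD and 13701, 11750.2, 12712 and 11305 in DIO-VSG. *Rps26*, which lies at the mRNA exit channel, was lower in DIO-LFD (-0.37 ± 0.15, adjusted p = 0.707), though CON-LFD replicate 2 lay among the DIO-LFD libraries. The covariate brought the median to -0.0018, with 36 of 75 above 0 and 17 at an unadjusted p under 0.05, against 12.6% of all genes.

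DIO-LFD and DIO-HFD, which differed in weight loss and in final diet together, had the smallest differences in the fit without a covariate. The median difference was -0.017, with 33 of 75 above 0 against 51.6% of all genes. None passed the test (limma, 0% of all genes called), none had an unadjusted p under 0.05 (5.37% of all genes were higher and 3.16% lower, 8.53% in all), none had groups apart (3.01% of all genes were higher and 1.5% lower without overlap), and voom gave 0 for both counts. The smallest p were those of *Rpl32* (-0.15 ± 0.13, adjusted p = 0.839), *Rpl24* (0.20 ± 0.17, adjusted p = 0.848) and *Rplp2* (0.16 ± 0.17, adjusted p = 0.897), and the largest difference was in *Rps7* (0.23 ± 0.29, adjusted p = 0.924). The 95% intervals lay within -0.5 and 0.5 for 64 of the 75, so that for these genes a difference beyond 0.5 in either direction lay outside the interval. *Rpl32* was 24747, 16977, 18054 and 19386 in DIO-HFD and 16912, 18245, 18212 and 17054 in DIO-LFD. The median followed single DIO-HFD libraries, at 0.13 without replicate 1 (3 members at an unadjusted p under 0.05, against 8.07% of all genes) and -0.12 without replicate 3. With the lymphocyte marker level as a covariate the median was -0.095, with 9 of 75 above 0 and 8 at an unadjusted p under 0.05, against 15.8% of all genes. Scaled to all reads it was -0.10, with 8 of 75 above 0 and a median over all genes of -0.074.

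**Figure D4:**
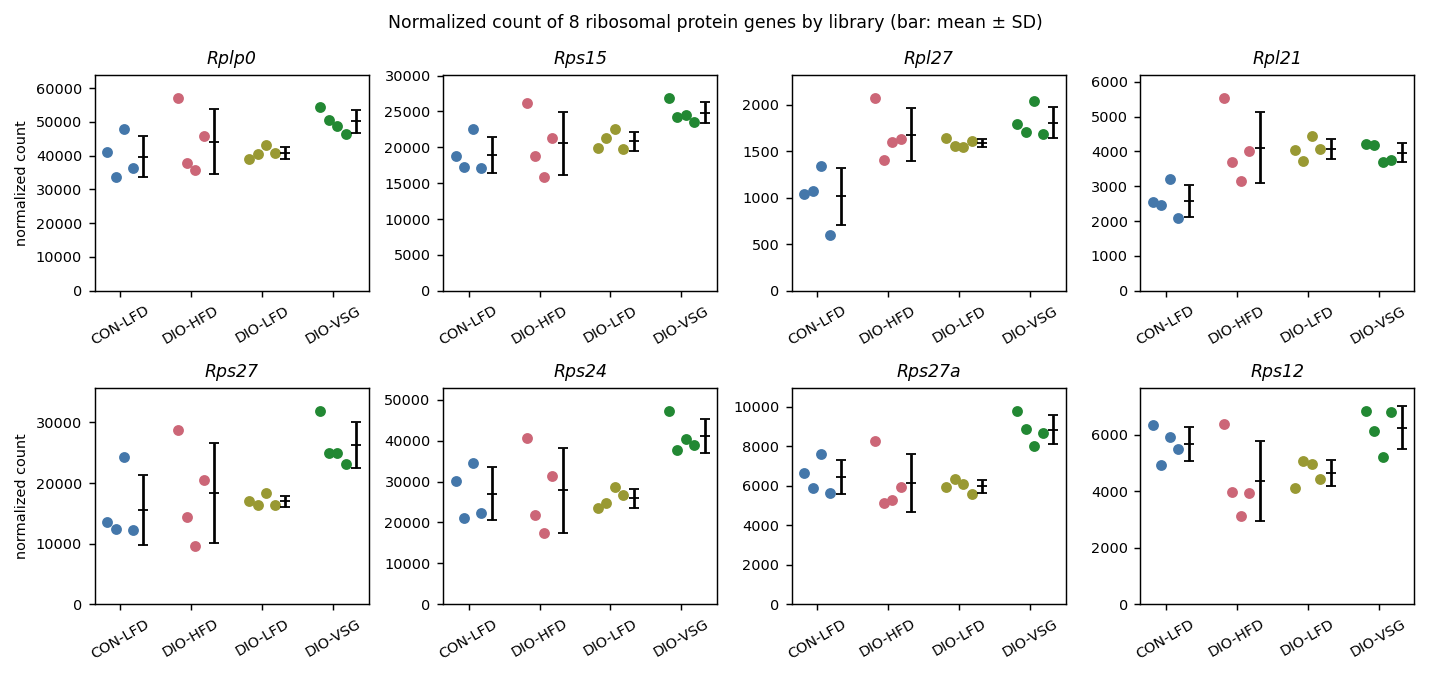
Normalized counts of 8 members in each library, grouped, with the mean ± SD of each group (n = 4) and every axis starting at 0. Rps15 and Rplp0 follow the family, Rpl27 and Rpl21 are lowest in CON-LFD, and Rps27, Rps24 and Rps27a are highest in DIO-VSG.

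By role, the 3 stalk proteins, which draw elongation factors to the large subunit, had differences on both sides of the family's median. *Rplp0*, the anchor of the stalk, averaged 39738 ± 6138 normalized counts in CON-LFD, 44133 ± 9691 in DIO-HFD, 40823 ± 1709.6 in DIO-LFD and 50156 ± 3379 in DIO-VSG (SD, n = 4). Its difference between DIO-VSG and CON-LFD was 0.35 ± 0.15. *Rplp2* differed more (0.50 ± 0.17) and *Rplp1* less (0.21 ± 0.15). DIO-LFD replicate 1 held 22606 normalized counts of *Rplp2*, above the other DIO-LFD libraries at 15838 to 17697.

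Among core large subunit proteins, *Rpl3* (0.25 ± 0.13) and *Rpl4* (0.32 ± 0.14), both early in assembly, were higher in DIO-VSG than in CON-LFD by less than the family's median. *Rpl5* (0.38 ± 0.15) and *Rpl11* (0.27 ± 0.14), which together carry the 5S ribosomal RNA and can bind Mdm2, the inhibitor of p53, were also under it. *Rpl41*, the smallest of the proteins, had overlapping groups, with 24889, 19525, 22732 and 22703 in CON-LFD and 27106, 23143, 23224 and 23912 in DIO-VSG (0.12 ± 0.095). *Rpl13a*, also known for a role in silencing inflammatory mRNAs, averaged 25192 ± 6232 in CON-LFD and 38128 ± 4537 in DIO-VSG (0.62 ± 0.21). *Rpl22*, needed for the development of T cells, went from 9963 ± 909 to 11650.4 ± 611 (0.23 ± 0.10). *Rpl26* (0.40 ± 0.11), a protein of the tunnel exit that also binds the p53 mRNA, and *Rpl38* (0.39 ± 0.12), known for its part in patterning the skeleton, had differences near the median.

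4 members lie on the X chromosome, *Rpl10*, *Rpl36a*, *Rpl39* and *Rps4x*. *Rpl39*, which lines the exit tunnel, averaged 3501 ± 831 in CON-LFD and 5388 ± 359 in DIO-VSG (0.65 ± 0.18). *Rpl36a* was 1778 ± 302 and 2483 ± 124 (0.50 ± 0.12). *Rps4x* was 31380.4 ± 4616 and 40918 ± 2666 (0.39 ± 0.15), with CON-LFD replicate 3, at 38229, within the DIO-VSG range.

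In the small subunit, *Rps6*, the substrate of S6 kinase downstream of mTOR, averaged 7433 ± 1579 in CON-LFD and 10314 ± 1026 in DIO-VSG (0.49 ± 0.19). *Rps3*, at the mRNA entry, was 22712 ± 4779 and 31701 ± 2004 (0.50 ± 0.18). *Rps14* (0.60 ± 0.15) and *Rps19* (0.61 ± 0.19), whose loss causes inherited or acquired anemias in people, were above the median. *Rps25* (0.34 ± 0.14), needed by internal ribosome entry sites, was under it. *Rps27*, a zinc-finger protein, had a wide range. *Rps27* was 13501, 12470.4, 24221 and 12193 in CON-LFD, 28772, 14344, 9647 and 20459 in DIO-HFD, 16978, 16299, 18278 and 16323 in DIO-LFD and 31892, 25025, 25011 and 23110.0 in DIO-VSG. Its difference between DIO-VSG and CON-LFD was among the largest (0.80 ± 0.28), and CON-LFD replicate 3, the control library with the highest lymphocyte markers, held 24221 against 12193 to 13501 in the other 3. With the covariate the difference of *Rps27* was 0.21 (adjusted p = 0.950).

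Many of the genes have near-identical copies elsewhere in the genome, and the deposited table lists these copies as genes of their own. By sequence, 351 listed copies (at least 90% identity over at least 100 bases, 347 of them annotated as pseudogenes) matched 70 of the 75 members. Of the reads in a member and its copies, the member's own row held a median of 60.5%, over 90% for 24 members, less than 50% for 34 and less than 10% for 4. These 4 were *Rpl5* (3.87%), *Rpl12* (4.84%), *Rpl10* (7.70%) and *Rps7* (7.97%). For *Rpl5*, the copy *Gm15500* averaged 31679 normalized counts against 1281 for *Rpl5*. The values of these members are therefore uncertain as measures of the gene, since reads of a member and its copy cannot be fully told apart.

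The split between member and copy was not the same in every library. *Rpl10-ps1* was 172, 8394, 7830.1 and 1817 in CON-LFD, 12329, 11502, 10423 and 11546 in DIO-HFD, 10992, 11783, 12544 and 10476 in DIO-LFD and 9112, 12043, 13393 and 10469 in DIO-VSG. This copy of *Rpl10* was at 172 and 1817 in CON-LFD replicates 1 and 4, and at 7830.1 or more in every other library, while *Rpl10-ps3* was between 15711 and 23156 throughout. Adding all copies to their members raised the share of reads to 2.41 ± 0.551% in CON-LFD, 2.93 ± 0.875% in DIO-HFD, 2.62 ± 0.256% in DIO-LFD and 3.41 ± 0.368% in DIO-VSG (SD, n = 4). The median difference between DIO-VSG and CON-LFD was then 0.40, with all 75 above 0 and 64 at an unadjusted p under 0.05, against 17.5% of all genes and a median over them of -0.024. That of *Rpl27* went from 0.89 to 0.42, and that of *Rps7* from 0.85 to 0.58. That of *Rps27* went from 0.80 to 0.83. In DIO-HFD against CON-LFD, the members at an unadjusted p under 0.05 went from 16 to 5, beside 12.7% of all genes, and to 3 without CON-LFD replicates 1 and 4 (median 0.082), beside 8.16%. Without CON-LFD replicates 1 and 4, the comparison of DIO-VSG with CON-LFD had a median of 0.33 and 22 members at an unadjusted p under 0.05, against 3.47% of all genes.

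**Figure D5:**
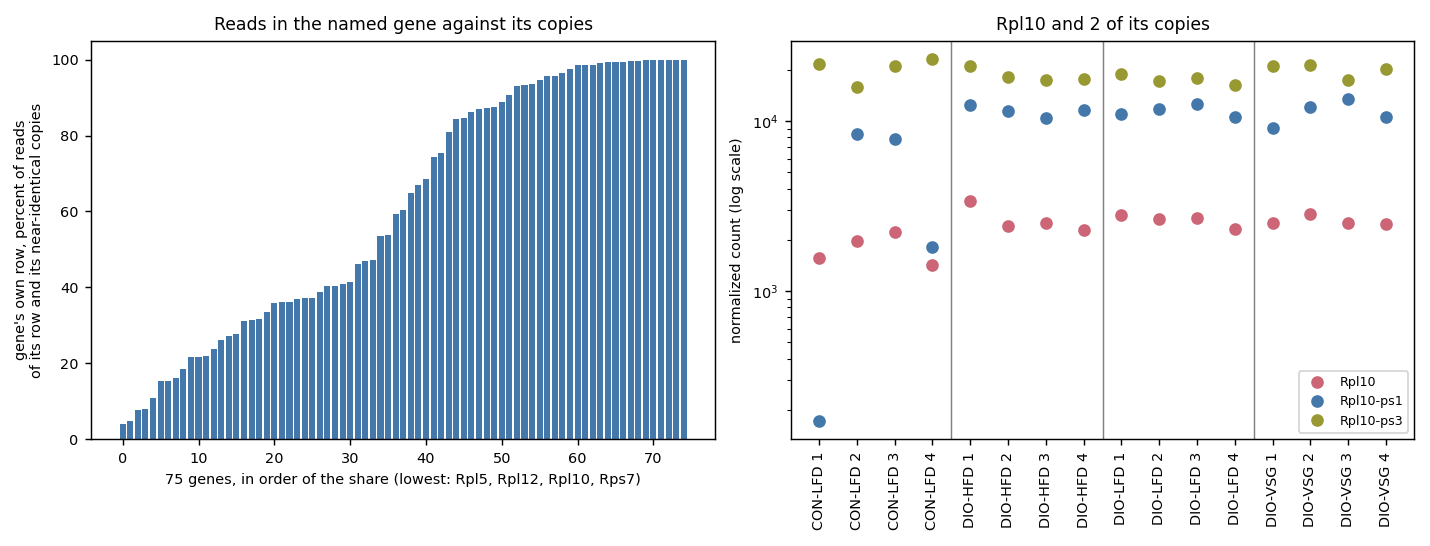
Left, for each of the 75 genes in order, the percent of the reads in the gene and its near-identical copies that its own row holds, with 34 genes below 50%. Right, normalized counts on a log scale of Rpl10 and 2 of its copies in every library, where Rpl10-ps1 is at 172 and 1817 in CON-LFD replicates 1 and 4 and at least 7830.1 elsewhere.

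Members differed in how closely they followed the family. After the library median was removed, *Rps15* (SD 0.0389 on the log2 scale over 16 libraries) and *Rpl8* (0.0541) were among those with the smallest spread left, so that either gave nearly the family's value in every library. *Rps15* was 18777, 17196, 22584 and 17130.5 in CON-LFD, 26229, 18714, 15903 and 21299.8 in DIO-HFD, 19845, 21245, 22482 and 19736 in DIO-LFD and 26906, 24286, 24439 and 23511 in DIO-VSG. The largest spreads left were those of *Rps7* (0.355), *Rpl27* (0.311) and *Rps12* (0.274). With copies added these 3 fell to 0.101, 0.0888 and 0.0941, whereas *Rps27* (0.271) and *Rps24* (0.226) kept 0.273 and 0.223. Per kilobase of transcript, mean levels ran from 626 normalized counts for *Rpl5* to 65107 for *Rps24*, a range of 104-fold, which fell to 18.8-fold with copies added. *Rpl12* (1047) and *Rps20* (2096, with an annotated transcript of 3706 bases, the longest of the family) followed *Rpl5* at the low end, and *Rps27* (55892) and *Rpl41* (51867) followed *Rps24* at the high end. The transcripts used for *Rpl5* and *Rpl12* held 2045 and 1242 bases, and levels per kilobase depend on which transcript is used.

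Ribosomal protein genes with other kinds of symbols were also higher in DIO-VSG in value. *Rpsa* was 8199.5 to 14064 normalized counts in CON-LFD and 14045 to 18020.2 in DIO-VSG (0.58 ± 0.21). *Rps3a1* was 19369 to 30459 and 31210.4 to 36820.3 (0.56 ± 0.15), and *Fau* 832 to 1271 and 1454 to 2099 (0.79 ± 0.17). Of the paralogs, variants with restricted or regulated expression, *Rpl22l1* was 1315 to 2136 in CON-LFD and 2582 to 2810.4 in DIO-VSG (0.66 ± 0.18), and *Rpl36al* 1599.8 to 1934 and 2060.4 to 2281 (0.31 ± 0.097). *Rpl7l1* (0.15 ± 0.075), *Rps27l* (0.043 ± 0.14), *Rpl39l* (0.19 ± 0.57) and *Rps4l* (-0.34 ± 0.32) showed smaller or opposite differences. *Rpl3l*, the muscle paralog, reached at most 299 normalized counts, in DIO-LFD, and was too low in most libraries to be tested, and *Rpl10l* was not analysed here.

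The wider machinery of translation was read from fixed lists, of which none held a gene that passed the test in any of the 6 comparisons (limma). Translation factors whose mRNAs also carry a 5′TOP were higher in DIO-VSG than in CON-LFD (17 of 17 above 0, median 0.13, 3 higher and 0 lower at an unadjusted p under 0.05), in DIO-VSG than in DIO-LFD (17 of 17 above 0, median 0.22, 7 higher and 0 lower at an unadjusted p under 0.05) and in DIO-VSG than in DIO-HFD (17 of 17 above 0, median 0.12, 4 higher and 0 lower at an unadjusted p under 0.05), though no single gene passed. In the same order, 10.2%, 4.3% and 5.05% of all genes were higher at an unadjusted p under 0.05. They were level between DIO-HFD and CON-LFD (10 of 17 above 0, median 0.0072, 0 higher and 1 lower at an unadjusted p under 0.05). *Btf3* had their smallest p against DIO-LFD (0.21, adjusted p = 0.509), *Naca* against DIO-HFD (0.29, adjusted p = 0.243) and *Eef1b2* against CON-LFD (0.36, adjusted p = 0.268). *Naca* and *Btf3* form the complex that shields nascent chains at the tunnel exit. In DIO-HFD against CON-LFD, *Naca* had the smallest p (-0.21, adjusted p = 0.260). In DIO-LFD against DIO-HFD, 5 of 17 were above 0 (median -0.056, 0 higher and 1 lower at an unadjusted p under 0.05 against 3.16% of all genes lower; *Eif3e*, -0.18, adjusted p = 0.560). In DIO-LFD against CON-LFD, 3 of 17 were above 0 (median -0.066, 0 higher and 0 lower; *Btf3*, -0.13, adjusted p = 0.823). The median deviation of these factors was 0.060 to 0.16 in DIO-VSG. It was 0.12 in CON-LFD replicate 3 and 0.15 in DIO-HFD replicate 1, the libraries highest in lymphocyte markers in their groups. In DIO-LFD replicate 4, also highest in its group, it was -0.16, the lowest of that group. The part of these markers in the list was not tested.

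Genes of ribosome assembly in the nucleolus and of RNA polymerase I were read next, and their difference from the ribosomal proteins was not tested. DIO-HFD was above CON-LFD (31 of 36 above 0, median 0.20, 8 higher and 1 lower at an unadjusted p under 0.05; smallest p in *Tsr1*, 0.42, adjusted p = 0.254), and DIO-VSG was level with DIO-HFD (18 of 36 above 0, median 0.00068, 0 higher and 0 lower at an unadjusted p under 0.05; *Polr1d*, 0.17, adjusted p = 0.386). By library, the median deviation of these genes was 0.21, -0.068, 0.28 and -0.12 in DIO-HFD and -0.029, -0.24, 0.013 and -0.27 in CON-LFD. The 2 groups thus overlapped. DIO-VSG against CON-LFD had 33 of 36 above 0, median 0.15, 3 higher and 0 lower at an unadjusted p under 0.05 (*Taf1c*, 0.54, adjusted p = 0.268). Of all genes, 5.23% were higher in DIO-HFD than in CON-LFD and 10.2% in DIO-VSG than in CON-LFD at that p. In DIO-LFD against DIO-HFD, 5 of 36 were above 0 (median -0.089, 0 higher and 0 lower at that p), and the smallest p belonged to *Nop10*, which was among those 5 (0.19, adjusted p = 0.602). In DIO-VSG against DIO-LFD, 25 of 36 were above 0 (median 0.043, 2 higher and 0 lower at that p against 4.3% of all genes higher; *Wdr12*, 0.24, adjusted p = 0.510), and in DIO-LFD against CON-LFD 26 of 36 (median 0.092, 4 higher and 0 lower against 3.23%; *Bysl*, 0.39, adjusted p = 0.546). The 24 genes of the mTOR pathway that control 5′TOP translation lay on both sides of 0 in every comparison, with medians from -0.081 to 0.056. At an unadjusted p under 0.05, 3 were higher and 2 lower in DIO-VSG against DIO-LFD (9.71% of all genes in either direction), 2 higher and 3 lower in DIO-VSG against CON-LFD (17.8%), and 1 higher and 1 lower in each of DIO-HFD against CON-LFD (12.9%) and DIO-LFD against DIO-HFD (8.53%), with 0 in the other comparisons. By smallest p, with the adjusted p given, these were led by *Maf1*, a repressor of RNA polymerase III, in DIO-HFD (0.308) and DIO-VSG (0.268) against CON-LFD, *Rps6kb2* in DIO-LFD (0.463) and *Sesn1* in DIO-VSG (0.380) against DIO-HFD, *Sesn3* in DIO-VSG against DIO-LFD (0.509) and *Rps6kb1* in DIO-LFD against CON-LFD (0.841).

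The ribosomal proteins of mitochondria, 76 genes that build a separate ribosome for the respiratory chain, took another course. They were lower in DIO-HFD than in CON-LFD in value (6 of 76 above 0, median -0.15, 1 higher and 24 lower at an unadjusted p under 0.05; smallest p in *Mrps18a*, -0.34, adjusted p = 0.167) and higher in DIO-LFD than in DIO-HFD (73 of 76 above 0, median 0.18, 22 higher and 0 lower at an unadjusted p under 0.05; *Mrps18a*, 0.37, adjusted p = 0.296). In DIO-VSG against DIO-HFD the counts were 64 of 76 above 0, median 0.13, 9 higher and 0 lower at an unadjusted p under 0.05 (*Mrps15*, 0.36, adjusted p = 0.275). Against DIO-LFD (18 of 76 above 0, median -0.088, 1 higher and 2 lower at an unadjusted p under 0.05; *Mrps7*, -0.25, adjusted p = 0.509) and CON-LFD (20 of 76 above 0, median -0.059, 0 higher and 1 lower at an unadjusted p under 0.05; *Mrps30*, -0.23, adjusted p = 0.268), DIO-VSG was on the low side of 0. DIO-LFD and CON-LFD were close (41 of 76 above 0, median 0.020, 4 higher and 1 lower at an unadjusted p under 0.05; *Mrps26*, 0.23, adjusted p = 0.572). Of all genes, 7.66% were lower in DIO-HFD than in CON-LFD, 5.37% higher in DIO-LFD than in DIO-HFD and 5.05% higher in DIO-VSG than in DIO-HFD at an unadjusted p under 0.05. The shares higher and lower were 4.3% and 5.41% in DIO-VSG against DIO-LFD, 10.2% and 7.55% in DIO-VSG against CON-LFD and 3.23% and 3.03% in DIO-LFD against CON-LFD. Markers of other cells moved with these differences. The adipocyte markers had 2 of 15 above 0 in DIO-HFD against CON-LFD (median -0.55, 0 higher and 3 lower at that p) and 14 of 15 in DIO-LFD against DIO-HFD (median 0.45, 4 higher and 0 lower). The mammary epithelial markers had 0 of 15 above 0 (median -0.78, 0 higher and 5 lower) and 11 of 15 (median 0.68, 8 higher and 0 lower). The adipocyte sums ranged from 1173140.0 to 2033920.0 normalized counts in CON-LFD, 669342 to 2037160.0 in DIO-HFD and 1360720.0 to 2277460.0 in DIO-LFD, and the epithelial sums from 78388 to 149598, 45833 to 101941 and 85100.5 to 209328, with no marker at 0 in any library. Their part in the mitochondrial values was not tested. The difference between the cytosolic and the mitochondrial families was not tested.

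7 of the members serve as reference genes for quantitative PCR, and all 7 were higher in DIO-VSG than in CON-LFD at an unadjusted p under 0.05, where 10.2% of all genes were, by 0.35 (*Rplp0*) to 0.89 (*Rpl27*). *Rps18* (0.50 ± 0.13), *Rpl19*, *Rpl32* (0.35 ± 0.13), *Rpl13a* and *Rps29* (0.41 ± 0.18) lay between them. Their SD over the 16 libraries on the log2 scale was 0.217 for *Rpl32*, the lowest, and 0.439 for *Rpl27*, the highest. With the lymphocyte marker covariate, the difference was 0.058 for *Rplp0*, 0.13 for *Rpl32*, 0.17 for *Rpl13a*, 0.32 for *Rpl19* and 0.64 for *Rpl27*. In that order, the unadjusted p (limma) was 0.546, 0.224, 0.197, 0.0077 and 0.0058. Of 14 reference genes from other families, 8 were above and 6 below 0 in the same comparison, and only *Tfrc* had an unadjusted p under 0.05 (0.50 ± 0.21). *Ppia* had the lowest SD of these (0.165; -0.12 ± 0.10) and *Pgk1* the highest (0.497). By smallest p, with the adjusted p given, the other reference genes were led by *Sdha* in DIO-HFD against CON-LFD (0.250) and DIO-VSG against DIO-HFD (0.400), *Tbp* in DIO-VSG against DIO-LFD (0.509) and *B2m* in DIO-LFD against CON-LFD (0.572).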

How the data were processed

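RNA was extracted from the contralateral mammary fat pad of 16 mice, and libraries were made with TruSeq Stranded Total RNA and sequenced on a HiSeq 2000. Per the study's methods, reads were aligned with STAR to mm10 and quantified with salmon, whereas the submitters' processing notes name TopHat2 2.0.7, HTSeq 0.5.3p9 and DESeq2 on mm10, and the 2 accounts were not reconciled. The deposited table holds, for 23179 genes, log2 values made by the authors with the variance-stabilizing transformation of DESeq2, although it is titled as normalized counts. The transformation was inverted, and the resulting values divided by each library's step were whole reads in 100% of cells (tolerance 0.05 reads). Normalized counts are those reads divided by the authors' size factors (0.904 to 1.22).

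A gene was tested if 4 or more libraries reached 10 normalized counts, which held for 21218 genes and all 75 members. log2(normalized count + 1) was fitted with limma 3.58.1 (R 4.3.3, trended prior) over all 16 libraries with the 4 groups as sole factor, and 6 comparisons were tested with Benjamini-Hochberg adjustment over all genes at 0.05, two-sided. Fold changes are on this log2 scale and understate those of low genes. The lymphocyte level is the mean log2 deviation of 35 T and B cell markers. Copies were found with blastn 2.17.0 against GENCODE M21 transcripts (GRCm38). Levels per kilobase used the shortest coding transcript among those that GENCODE tags as basic and CCDS, where a gene had any. The script was tested on simulated data. Alternatives were the deposited values as such, a pseudocount of 10, no filter, quantile scaling, scaling to read totals, voom, library weights, 2 groups alone, the replicate number as a block, the lymphocyte covariate, rows without predicted genes, copies added, and each library left out.

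The members and lists were chosen with earlier results of these data known, by symbol and by role. Members were named by role, by smallest p and largest change in each comparison, by level per length and by spread. Some genes that this rule names are not reported here. Libraries of a group are from separate animals, and no 2 agreed within sampling noise (lowest chi-square per gene 64.4).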

Additional observations from a re-analysis of the deposited data

Results flagged for a closer look

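A library far from the other 3 of its group was found in 8 of the 172 groups of 4 tested (the share of reads, the median of the members and 41 named members, in each group), where Dixon's test at 95% marks about 1 in 20 groups by chance. *Rpl10* in DIO-VSG was 2836 normalized counts in replicate 2 and 2466 to 2504 in the other 3. *Rpl41* in DIO-HFD was 24899.8 normalized counts in replicate 1 and 20478 to 21098 in the other 3. *Rps4x* in CON-LFD was 38229 normalized counts in replicate 3 and 28222 to 29884 in the other 3. *Rps4x* in DIO-LFD was 35714 normalized counts in replicate 3 and 31434 to 31725 in the other 3. *Rps27* in CON-LFD was 24221 normalized counts in replicate 3 and 12193 to 13501 in the other 3. *Rpl35a* in DIO-LFD was 5590.0 normalized counts in replicate 3 and 5136 to 5173 in the other 3. *Rpl24* in DIO-HFD was 2726 normalized counts in replicate 1 and 1951 to 2039.8 in the other 3. *Rps7* in DIO-HFD was 3427 normalized counts in replicate 1 and 1379 to 1574 in the other 3. The 3 values from DIO-HFD replicate 1 and the 2 from CON-LFD replicate 3 came from the libraries with the highest T and B cell marker level of their group, and the part of these markers in the values was not tested gene by gene. The share of reads and the median deviation of the members had no such library in any group.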

How the results depend on the processing

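Besides the fit described above, 15 other settings and 16 that leave out 1 library were run, 2 of them chosen after seeing the data (copies added by sequence, and CON-LFD replicates 1 and 4 left out together). The count of members passing the test stayed at 0 in every comparison except as follows. Library weights gave 34 in DIO-HFD against CON-LFD, 20 in DIO-VSG against DIO-HFD, 3 in DIO-VSG against DIO-LFD, 64 in DIO-VSG against CON-LFD and 2 in DIO-LFD against CON-LFD, the 2 groups fitted alone gave 22 in DIO-VSG against DIO-LFD, and the lymphocyte covariate gave 1 in DIO-HFD against CON-LFD. Leaving out 1 library gave 0 to 3 in DIO-HFD against CON-LFD and 0 to 29 in DIO-VSG against CON-LFD, both highest without CON-LFD replicate 3, and 0 in the other 4 comparisons. The cause of these shifts was not tested. The median difference over the members ranged, leaving out 1 library, from 0.032 to 0.27 for DIO-HFD against CON-LFD, 0.14 to 0.37 for DIO-VSG against DIO-HFD, -0.12 to 0.13 for DIO-LFD against DIO-HFD, 0.21 to 0.30 for DIO-VSG against DIO-LFD, 0.38 to 0.52 for DIO-VSG against CON-LFD, 0.088 to 0.25 for DIO-LFD against CON-LFD. The lymphocyte covariate brought it to 0.17 in DIO-VSG against CON-LFD. The mean share of reads was 1.30% to 1.54% in CON-LFD, 1.57% to 1.99% in DIO-HFD, 1.56% to 1.68% in DIO-LFD, 1.98% to 2.16% in DIO-VSG leaving out 1 library. It rose with named pseudogenes to 1.92% in CON-LFD, 2.10% in DIO-LFD and 2.71% in DIO-VSG, and with all copies to 2.41%, 2.93%, 2.62% and 3.41% in the 4 groups, in the order of the report, since more rows are summed.

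The median over the members changed sign in DIO-LFD against DIO-HFD without DIO-HFD replicate 1 (0.13) or replicate 4 (0.0068) and in DIO-LFD against CON-LFD with the lymphocyte covariate (-0.0018). The members at an unadjusted p under 0.05 numbered, leaving out 1 library, 10 (without CON-LFD replicate 4) to 29 (without DIO-HFD replicate 3, with 28 without CON-LFD replicate 3) in DIO-HFD against CON-LFD (8.53 to 19.7% of all genes over these settings), 4 to 57 in DIO-VSG against DIO-HFD (7.47 to 27.5%, also 5 without DIO-HFD replicate 2 and 11 without DIO-VSG replicate 2 or 3), 0 to 3 in DIO-LFD against DIO-HFD (5.95 to 9.21%), 7 to 37 in DIO-VSG against DIO-LFD (5.11 to 13.3%, 13 without DIO-LFD replicate 1 or 4), 48 to 69 in DIO-VSG against CON-LFD (8.95 to 30.5%) and 12 to 29 in DIO-LFD against CON-LFD (3.96 to 12.5%, 13 without CON-LFD replicate 1 or DIO-LFD replicate 3). With the 2 groups fitted alone they numbered 9 in DIO-HFD against CON-LFD (7.94% of all genes), 8 in DIO-VSG against DIO-HFD (12.02%) and 50 in DIO-VSG against DIO-LFD (25.3%), and with quantile scaling 13 in DIO-LFD against CON-LFD (6.44%). Differences of named members changed sign in 23 cases. With library weights, 0.13 for *Rpl10* in DIO-VSG against DIO-HFD, -0.074 for *Rps26* in DIO-VSG against CON-LFD. With named pseudogenes added, 0.055 for *Rpl10* in DIO-VSG against DIO-HFD. With copies by sequence added, 0.055 for *Rpl10* in DIO-VSG against DIO-HFD, -0.12 for *Rps7* in DIO-LFD against DIO-HFD, 0.21 for *Rpl24* in DIO-VSG against DIO-LFD, 0.023 for *Rpl29* in DIO-VSG against CON-LFD. Scaled to all reads, 0.010 for *Rpl24* in DIO-VSG against DIO-LFD, 0.11 for *Rpl29* in DIO-VSG against CON-LFD. Scaled to the reads of other genes, 0.017 for *Rpl24* in DIO-VSG against DIO-LFD, 0.12 for *Rpl29* in DIO-VSG against CON-LFD. Without CON-LFD replicates 1 and 4, 0.18 for *Rpl29* in DIO-VSG against CON-LFD. With the lymphocyte marker covariate, -0.075 for *Rplp1* in DIO-VSG against CON-LFD, -0.14 for *Rps12* in DIO-VSG against CON-LFD, -0.25 for *Rps26* in DIO-VSG against CON-LFD. Leaving out 1 library, the range was -0.087 to 0.10 for *Rpl10* in DIO-VSG against DIO-HFD, -0.092 to 0.016 for *Rpl24* in DIO-VSG against DIO-LFD, -0.12 to 0.086 for *Rpl29* in DIO-VSG against CON-LFD, -0.11 to 0.093 for *Rps26* in DIO-VSG against CON-LFD. The replicate numbers did not pair the libraries: deviations of same-numbered libraries from their group means had correlations from -0.61 to 0.53, with 9 of 24 over 0.1. A fit with the replicate number as a block left 0 members passing in all 6 comparisons, with 61 at an unadjusted p under 0.05 in DIO-VSG against CON-LFD (15.98% of all genes), 18 in DIO-VSG against DIO-LFD (8.81%) and 12 in DIO-VSG against DIO-HFD (11.8%). With 4 libraries a group, the members' 95% intervals reached a median of 0.31 (0.18 to 0.63) either side of the log2 difference. These intervals are not adjusted for the number of genes tested. Larger differences, such as that of *Rpl27* in DIO-VSG against CON-LFD (0.89), did not pass the adjusted test either.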

Other observations

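Other cell types of the fat pad were read from the same fixed marker lists, none of which held a gene passing the test (limma) in any of the 6 comparisons. In DIO-HFD against CON-LFD the T cell markers had a median log2 difference of 0.63 and the B cell markers 1.11, with no marker of either list at an unadjusted p under 0.05. Of the 15 macrophage markers, 5 were above 0 in DIO-VSG against CON-LFD (median -0.38, smallest adjusted p 0.268 for *Cd14*) and 13 in DIO-HFD against CON-LFD (median 0.36, smallest adjusted p 0.316 for *Trem2*). Of the 15 adipocyte markers, 0 were above 0 in DIO-VSG against CON-LFD (median -0.46, smallest adjusted p 0.313 for *Pparg*) and 2 in DIO-HFD against CON-LFD (median -0.55, smallest adjusted p 0.227 for *Gpd1*). Of the 15 mammary epithelial markers, 4 were above 0 in DIO-VSG against CON-LFD (median -0.53, smallest adjusted p 0.268 for *Wfdc18*) and 0 in DIO-HFD against CON-LFD (median -0.78, smallest adjusted p 0.257 for *Krt18*). Of the 14 skeletal muscle markers, 4 were above 0 in DIO-VSG against CON-LFD (median -0.28, smallest adjusted p 0.551 for *Acta1*) and 0 in DIO-HFD against CON-LFD (smallest adjusted p 0.266 for *Myh4*), where CON-LFD replicate 4 stood apart. Of the 8 plasma cell markers, 6 were above 0 in DIO-VSG against CON-LFD (median 0.19, smallest adjusted p 0.275 for *Mzb1*) and 7 in DIO-HFD against CON-LFD (median 0.40, smallest adjusted p 0.359 for *Prdm1*). Of the 7 erythroid markers tested, 5 were above 0 in DIO-VSG against CON-LFD (median 0.12, smallest adjusted p 0.528 for *Slc4a1*) and 7 in DIO-HFD against CON-LFD (median 0.36, smallest adjusted p 0.797 for *Slc4a1*). Of the 9 keratinocyte markers tested, 4 were above 0 in DIO-VSG against CON-LFD (median -0.093, smallest adjusted p 0.275 for *Sbsn*) and 7 in DIO-HFD against CON-LFD (smallest adjusted p 0.185 for *Dsg1a*), where DIO-HFD replicate 4 stood apart. Single libraries stood far from their group in some of these lists. The keratinocyte markers summed to 15725 normalized counts in DIO-HFD replicate 4 and 1469 to 2518 in the other 3 DIO-HFD libraries, beside 1653 to 3360 in CON-LFD. The skeletal muscle markers summed to 43555 in CON-LFD replicate 4 and 3466 to 5477 in the other 3, beside 1989 to 3779.6 in DIO-HFD, to 198005 in DIO-LFD replicate 4 and 2363 to 2998 in the other 3, and to 33832 in DIO-VSG replicate 2 and 1797 to 4751 in the other 3, and the erythroid markers to 23706 to 464129 in DIO-LFD. *Rpl3l*, the ribosomal protein paralog of striated muscle, ranged from 2.98 to 299 normalized counts in DIO-LFD.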
